A study of Rattus norvegicus with 78 samples.

Results

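The hippocampal response to water maze training was examined in the old rats that learned it poorly. The 10 arrays of the group 5T-AI were set against the 10 arrays of the group NT-A, out of 78 arrays of 8 groups in the whole series. All 20 animals were male F344 rats of 24 to 26 months, an inbred strain widely used to study ageing, and each gave 1 Affymetrix RAE230A array from the dorsal part of its left hippocampus. The 5T-AI rats had learned, or tried to learn, the place of a hidden platform in a pool, the Morris water maze. They were classed by the authors as cognitively impaired from their performance and were sampled on day 5, the last training day. The NT-A rats stayed in the home cage and never entered the maze, so they were not divided by learning ability. Training, swimming, handling and the choice of poor learners therefore cannot be told apart in this comparison. The other contrasts served as background: 5T-AU (10 unimpaired aged rats trained alongside), 21PT-AI (9 impaired aged rats sampled 21 days after training) and 5T-Y with NT-Y (10 trained and 10 untrained rats of 4 to 6 months). The 5T-AI rats needed between 40 and 67.9 s to reach the platform, with a median of 49.7 s, whereas the 5T-AU rats needed between 11.45 and 18.9 s.

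The hippocampus stores new spatial memories, and its CA1 and CA3 pyramidal cells and dentate granule cells switch on immediate early genes such as Arc and Fos when they fire. Maze training is also a swimming stress that raises corticosterone, which acts on neurons and glia through the glucocorticoid receptor. Astrocytes, joined to each other by connexin channels, pass glucose and its products from the vessels to neurons, and oligodendrocytes make the myelin sheath of axons.

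The dissected tissue carried the markers of hippocampus. Slc17a7, the vesicular glutamate transporter of pyramidal and granule cells, had median signals of 5737 intensity units in 5T-AI and 5827 in NT-A rats. Prox1, a transcription factor of dentate granule cells, had medians of 1328 in 5T-AI and 1335 in NT-A rats, and the CA1 marker Wfs1 had 4057 in 5T-AI and 3761 in NT-A rats. Ttr, which the neighbouring choroid plexus makes in bulk, was low in most samples, between 157.5 and 577 units in 5T-AI and between 141.6 and 247 in NT-A rats.

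One array of the trained group stood apart. The correlation of 5T-AI replicate 4 with the mean of the other arrays of its group was 0.921, whereas it was between 0.979 and 0.990 for the other 9. In that array 24 of 26 microglia markers, all 8 complement genes, 9 of 10 markers of meninges and fibroblasts and 30 of 38 lysosome genes lay above all 19 other arrays. By contrast 15 of 19 general neuron markers, 8 of 12 interneuron markers and 18 of 24 postsynaptic scaffold genes lay below all of them. Over all 10371 tested probe sets 19.1% lay above and 21.6% below. The summed signal of the microglia markers was 62868 units in that array, between 12840 and 15142 in the other 5T-AI arrays and between 13539 and 16695 in NT-A arrays. In a bulk sample, fewer cells of a type and less RNA per cell cannot be told apart. Results that this array could move are therefore also given without it.

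**Figure D1:**
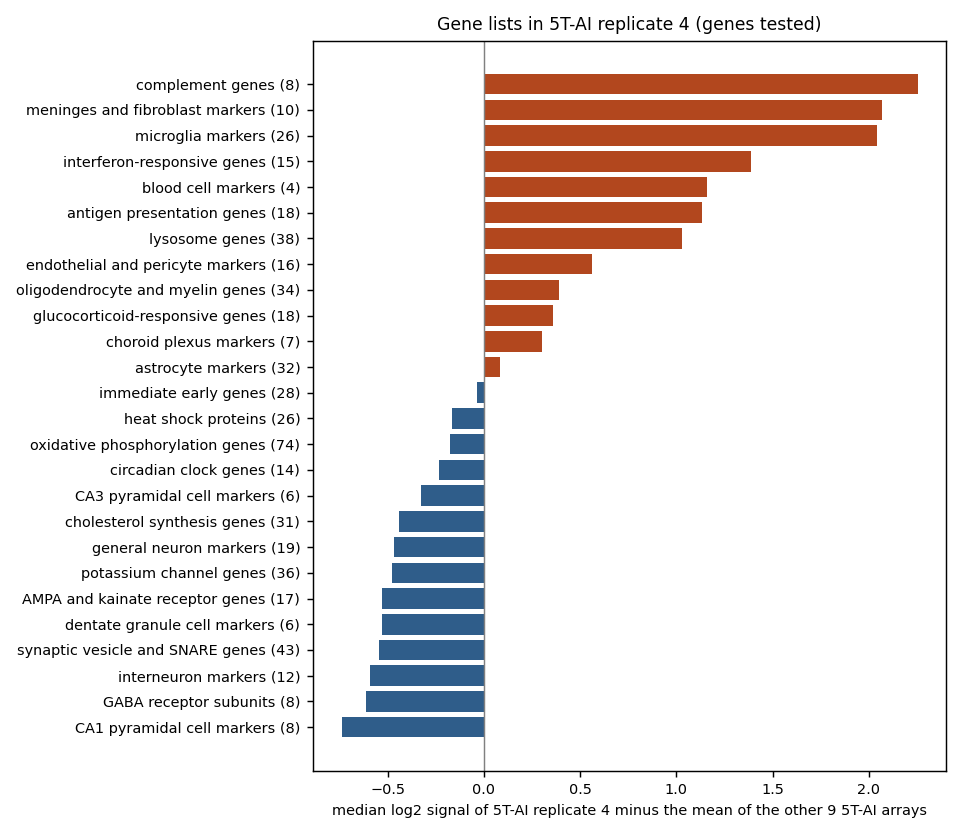
Median over the genes of each list of the log2 signal of 5T-AI replicate 4 minus the mean of the other 9 5T-AI arrays, with the number of genes tested in brackets. Complement genes (2.25), meninges and fibroblast markers (2.07) and microglia markers (2.04) lay furthest above 0, and CA1 pyramidal cell markers (-0.74) furthest below among the lists drawn.

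After 5 days of training impaired old rats differed from untrained old rats in few genes, among them a tyrosine phosphatase, a connexin of astrocytes and a clock repressor. Log2 of signal plus 1 was compared with limma in a fit over all 78 arrays, and an adjusted p under 0.05 over all tested probe sets counted as passing. By this measure 9 of 10371 probe sets passed (0.0868%), of which 7 rose (0.0675%) and 2 fell (0.0193%). The genes that rose were Gpd1, Ptp4a3, Gjb6, Sult1a1, Per2, Pnpla2 and Plcl1, and those that fell were Adcy8 and Ntng1. Before adjustment 1076 probe sets (10.4%) had p under 0.05, 568 of them higher (5.48%) and 508 lower (4.9%) in 5T-AI rats. Without 5T-AI replicate 4, 8 passed (0.0771%), 5 higher (0.0482%) and 3 lower (0.0289%), and 1008 (9.72%) had unadjusted p under 0.05, 521 higher (5.02%) and 487 lower (4.7%). Of the 8 that passed, 6 were among the 9: Ptp4a3, Gjb6, Sult1a1, Per2, Plcl1 and Ntng1.

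Ptp4a3, a small tyrosine phosphatase of the PRL family, had the smallest p of all tested probe sets. Its signal ran between 728 and 1366 units with a median of 894 in 5T-AI rats, against a range of 450 to 729 and a median of 550.25 in NT-A rats. The log2 difference was 0.69 ± 0.10 (SE, n = 10 each), a 1.61-fold rise (adjusted p = 3.84e-05), and 0.63 ± 0.10 without replicate 4 (adjusted p = 3.82e-04). All but 1 of the 5T-AI rats lay above every NT-A rat.

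Gjb6 encodes connexin 30, a gap junction channel of astrocytes. It had signals between 403 and 581 units with a median of 451 in 5T-AI rats, against 248.8 to 362 with a median of 310.15 in NT-A rats. The rise was 0.57 ± 0.09 in log2 signal (1.49-fold, adjusted p = 1.51e-04), and 0.56 ± 0.10 without replicate 4, whose own value of 480.5 lay inside the range of its group. The groups did not overlap. This held for 3 of all tested probe sets (0.0289%), those of Gjb6, Plcl1 and Slc2a1, and without replicate 4 for Per2 as well.

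Plcl1, a catalytically inactive relative of phospholipase C that binds inositol phosphates and a protein of GABA receptor traffic, showed a small and tight rise. Signals lay between 1001 and 1258 with a median of 1143 units in 5T-AI rats, against 811 to 994 with a median of 900.15 in NT-A rats. The difference was 0.32 ± 0.06 in log2 signal (1.25-fold, adjusted p = 0.00172), and 0.31 without replicate 4.

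Sult1a1, a sulfotransferase that conjugates phenols and is induced by glucocorticoids in rat liver, rose by 0.54 ± 0.10 (1.45-fold, adjusted p = 0.00236). Its signals were between 426 and 993 units with a median of 487 in 5T-AI rats, against 274 to 516 with a median of 361 in NT-A rats. The highest value was that of replicate 4, and the other 9 lay between 426 and 562. Without it the rise was 0.44 ± 0.09 (adjusted p = 0.0163). Only 3 of 10 5T-AI rats lay above the highest NT-A rat, and 9 of 10 NT-A rats lay below the lowest 5T-AI rat.

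Gpd1 is the cytosolic glycerol phosphate dehydrogenase, which in brain is found mainly in oligodendrocytes and is induced by corticosterone. It showed the widest spread. Signals ran between 1120.3 and 4310 with a median of 1691 units in 5T-AI rats, against 735.5 to 1391 with a median of 1077 in NT-A rats. The log2 difference was 0.76 ± 0.16 (1.69-fold, adjusted p = 0.0104). The value of 4310 was that of replicate 4, and without it the difference was 0.61 ± 0.14 and did not pass (adjusted p = 0.0557). A second, dimmer Gpd1 probe set differed by 1.55 ± 0.41 without passing (adjusted p = 0.132).

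Pnpla2, the lipase that starts the breakdown of stored triglyceride, rose by 0.33 ± 0.07 (1.26-fold, adjusted p = 0.0113). In 5T-AI rats its signals were between 267 and 506 with a median of 329 units, against 247 to 298 with a median of 265 in NT-A rats. The highest was again replicate 4, and without it the difference of 0.27 ± 0.06 did not pass (adjusted p = 0.0557). Of the 5T-AI rats 8 lay above all NT-A rats.

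Per2, a repressor in the loop of the daily clock, behaved in the opposite way with respect to that array. Signals were between 448 and 704 with a median of 579 units in 5T-AI rats, against 381 to 489.5 with a median of 449 in NT-A rats. The lowest 5T-AI value was that of replicate 4. The rise was 0.37 ± 0.08 with it (1.29-fold, adjusted p = 0.0182) and 0.41 ± 0.08 without it (adjusted p = 0.00564), when the groups no longer overlapped. The hour at which each rat was killed is not given in the sources used here, so its part in the difference was not tested.

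Both genes that fell act in neurons. Ntng1 encodes netrin G1, an adhesion protein anchored to the axon surface. It had 134 to 204 units with a median of 178 in 5T-AI rats, against 189 to 257 with a median of 242 in NT-A rats. It fell by 0.44 ± 0.08 on the log2 scale (0.73-fold, adjusted p = 5.87e-04), and by 0.40 ± 0.08 without replicate 4, which was its lowest array. Adcy8, an adenylyl cyclase switched on by calcium and calmodulin, had 40.4 to 135 units with a median of 93.6 in 5T-AI rats, against 107 to 164 with a median of 143 in NT-A rats. The difference of -0.59 ± 0.13 passed (adjusted p = 0.015) but became -0.46 ± 0.11 without replicate 4 (adjusted p = 0.0719). This probe set was dim: in 0 of 10 5T-AI and 1 of 10 NT-A arrays did it exceed the 40th percentile of all signals of that array.

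**Figure D2:**
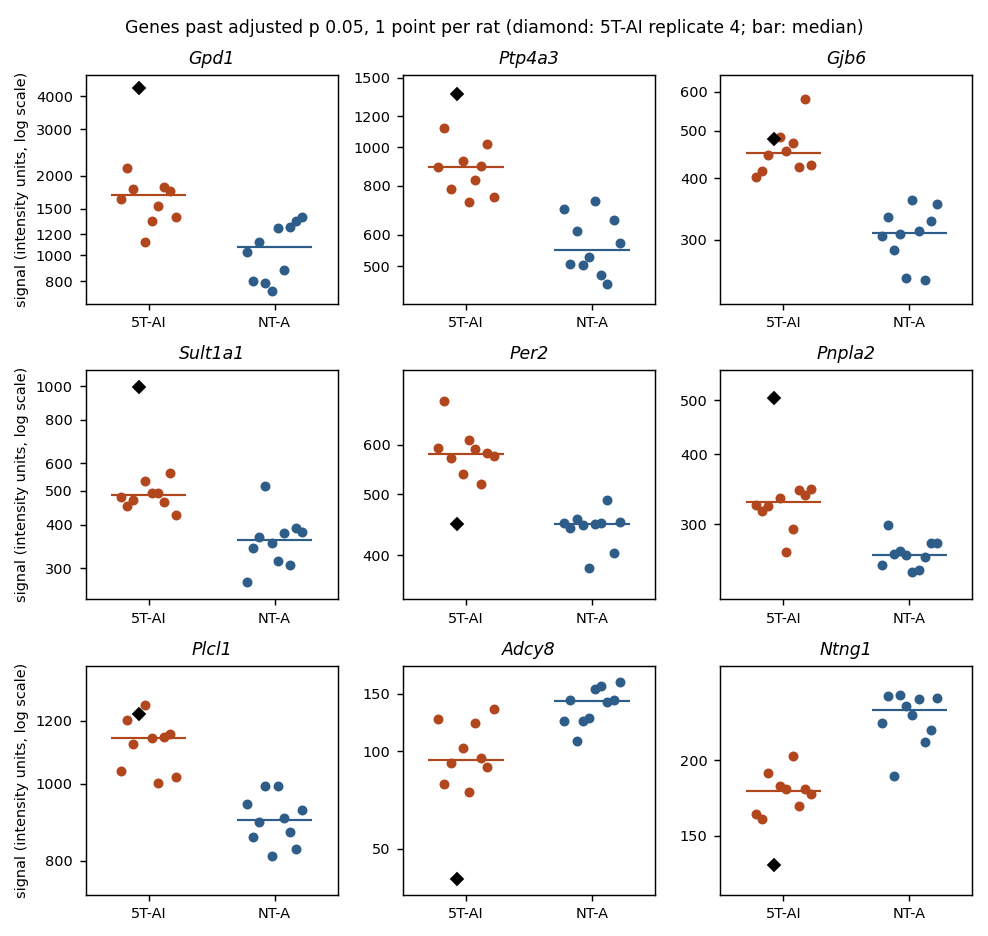
Signal in intensity units on a log scale for the 9 genes past the threshold, 1 point per rat, 5T-AI left and NT-A right, with the group median as a bar and 5T-AI replicate 4 as a black diamond. Replicate 4 is the highest array for Gpd1, Ptp4a3, Sult1a1 and Pnpla2 and the lowest for Per2, Adcy8 and Ntng1, and the groups do not overlap for Gjb6 and Plcl1.

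Leaving out replicate 4 brought in 2 genes that fell. Mmp14, a membrane-bound protease of the extracellular matrix, had 692 units in replicate 4 and 87.2 to 128.5 in the other 9 5T-AI arrays, against 109 to 219 in NT-A rats. Its difference was -0.22 ± 0.17 with the array (adjusted p = 0.696) and -0.49 without it (adjusted p = 0.0387). It too was dim, above the 40th percentile in 1 of 10 5T-AI and 2 of 10 NT-A arrays. C20h6orf89 had 539 to 847 units with a median of 685 in 5T-AI rats, against 639 to 1287 with a median of 853 in NT-A rats, and fell by 0.41 on the log2 scale without replicate 4 (adjusted p = 0.0404).

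The same arrays were also read by scan day and chip lot. The genes were called from these arrays, so a shared direction across days or lots is no separate support. Each of the 10 scan days of these 20 arrays held 1 array of either group, and the 7 genes that rose were higher in the 5T-AI array on 10 of 10 days, while Adcy8 and Ntng1 were lower on 9 of 10. Of all tested probe sets 75 (0.723%) kept 1 direction on all 10 days. The difference in Gjb6 ran between 0.25 and 0.94 over the days with a median of 0.59, and that in Plcl1 between 0.14 and 0.59 with a median of 0.31. For Gpd1 it ran between 0.075 and 2.55, the highest being the day of replicate 4. Within the 3 chip lots, Gjb6 differed by 0.45, 0.76 and 0.52 and Ptp4a3 by 0.61, 0.91 and 0.58, the second lot being that of replicate 4.

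**Figure D3:**
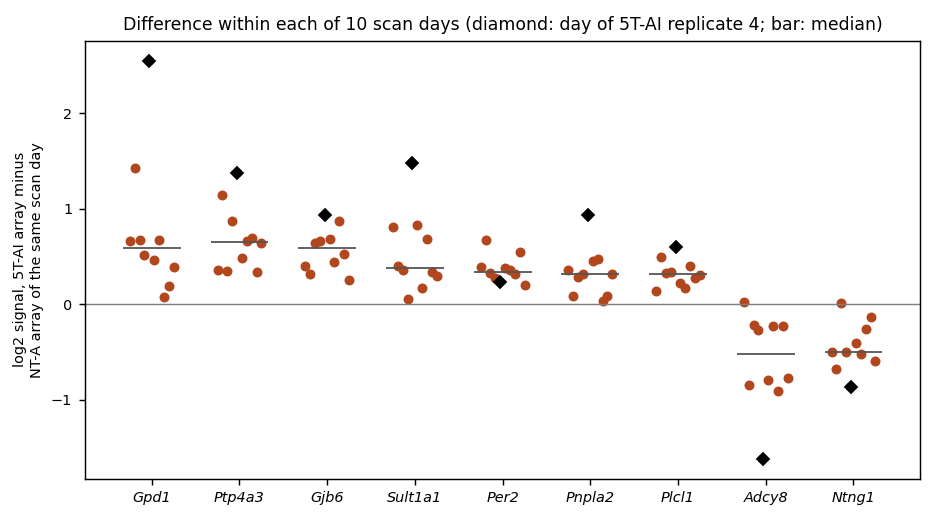
Difference in log2 signal between the 5T-AI and the NT-A array of the same scan day, 1 point per day and gene, with the median as a bar and the day of 5T-AI replicate 4 as a black diamond. The 7 genes that rose lie above 0 on all 10 days, and Adcy8 and Ntng1 lie below 0 on 9 of 10.

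The fluidics module, the station that washed and stained an array, nearly followed the groups. Of the 5T-AI arrays 7 were run in module 1 and 3 in module 4, whereas 8 NT-A arrays were run in module 4 and 2 in module 3. With module as a term 2 probe sets passed, those of Ptp4a3 (0.62 ± 0.13, adjusted p = 0.0307) and Gjb6 (0.55 ± 0.11, adjusted p = 0.0307). The other 7 kept their direction with values between -0.40 and 0.78. Within module 4, with 3 5T-AI and 8 NT-A arrays, the differences were 0.65 for Ptp4a3, 0.53 for Gjb6, 0.78 for Gpd1, 0.45 for Sult1a1, 0.35 for Per2, 0.29 for Pnpla2, 0.22 for Plcl1, -0.24 for Adcy8 and -0.40 for Ntng1. Replicate 4 was run in module 1. The 3′ over 5′ ratio of the beta-actin control was 0.69 ± 0.15 on the log2 scale in 5T-AI and 0.89 ± 0.28 in NT-A arrays (SD, n = 10 each), and its part in these results was not tested beyond its use as a covariate.

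Promoter sequences are shown for the called genes in which a letter match to a steroid response half-site was found, and for Ntng1, which fell, as a case with none. The RefSeq table of promoters, build GRCr8, runs from 250 bases before to 50 bases after each transcript start. It held 4 of the 6 genes with the smallest p, and lacked Ptp4a3 and Gpd1. The called genes Per2, Pnpla2 and Adcy8 were not looked up. Both strands were searched for AGAACA (a single arm of the glucocorticoid response element), TGACGTCA (cAMP response element), CACGTG (the E box of clock factors), TTCNNGAA (core of the heat shock element) and TCACCCCAC (sterol response element). Matches are in capitals. In the second promoter listed for Gjb6 the half-site, read on the opposite strand, overlaps a heat shock core.
Gjb6, second promoter, chr15:35408913-35409212, minus strand: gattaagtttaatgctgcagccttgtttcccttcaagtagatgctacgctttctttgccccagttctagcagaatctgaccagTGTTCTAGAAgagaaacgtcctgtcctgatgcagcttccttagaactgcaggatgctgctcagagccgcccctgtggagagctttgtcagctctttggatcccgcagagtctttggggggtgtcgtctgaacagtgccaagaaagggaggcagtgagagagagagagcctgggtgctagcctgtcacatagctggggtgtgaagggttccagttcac
Sult1a1, chr1:190706063-190706362, minus strand: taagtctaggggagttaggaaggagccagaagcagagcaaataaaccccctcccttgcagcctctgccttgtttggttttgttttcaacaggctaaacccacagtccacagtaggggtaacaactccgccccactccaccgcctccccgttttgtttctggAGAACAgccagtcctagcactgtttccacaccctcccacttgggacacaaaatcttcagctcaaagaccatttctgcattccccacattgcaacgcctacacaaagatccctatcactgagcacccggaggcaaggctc
Plcl1, chr9:64395726-64396025, plus strand: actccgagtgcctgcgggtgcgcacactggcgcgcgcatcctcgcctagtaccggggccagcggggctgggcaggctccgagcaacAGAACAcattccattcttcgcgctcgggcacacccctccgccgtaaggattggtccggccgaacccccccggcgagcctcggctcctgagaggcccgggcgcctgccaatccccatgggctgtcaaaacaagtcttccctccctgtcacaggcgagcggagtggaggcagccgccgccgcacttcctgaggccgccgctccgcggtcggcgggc
Ntng1, chr2:200514982-200515281, minus strand: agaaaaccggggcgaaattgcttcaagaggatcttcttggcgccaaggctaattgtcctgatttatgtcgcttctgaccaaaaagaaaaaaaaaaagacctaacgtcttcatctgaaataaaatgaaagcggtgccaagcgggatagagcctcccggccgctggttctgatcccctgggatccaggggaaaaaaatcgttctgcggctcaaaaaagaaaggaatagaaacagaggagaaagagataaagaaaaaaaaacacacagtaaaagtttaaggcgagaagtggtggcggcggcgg
The AGAACA match lies at positions -167 to -162 from the start in Gjb6, -89 to -84 in Sult1a1 and -164 to -159 in Plcl1. Across the 33469 promoters 20.7% hold it, 8.77% hold the heat shock core, 6.42% the E box, 1.83% the cAMP element and 0.484% the sterol element. The first promoter listed for Gjb6 and that of Ntng1 held none of the 5.

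Just outside the threshold lay Dsp and Slc2a1, which passed with scan day as a term (adjusted p = 0.0307 and 0.0437). Dsp encodes desmoplakin, a junction protein that marks dentate granule cells, and had 194 to 335.5 units with a median of 282 in 5T-AI rats, against 309 to 415.5 with a median of 352 in NT-A rats (-0.39 ± 0.09, adjusted p = 0.0528, and -0.34 without replicate 4). Slc2a1, which carries glucose across vessel walls into the brain, had 906 to 1374 units with a median of 957 in 5T-AI rats, against 637 to 881 with a median of 813 in NT-A rats (0.33 ± 0.08, adjusted p = 0.0591, and 0.28 without replicate 4). The Slc2a1 groups did not overlap, with or without replicate 4, whose 1374 was the highest value. Further down the order by p were Npepps, a cytosolic aminopeptidase (-0.26 ± 0.06), Nherf1, a PDZ scaffold of membrane transporters (0.24 ± 0.06), Git2, an Arf GTPase-activating protein (0.41 ± 0.10), Cnot8, a deadenylase of messenger RNA (0.24 ± 0.06), and Itpk1, an inositol phosphate kinase (0.28 ± 0.07). Their adjusted p-values lay between 0.0591 and 0.12. Spetex2l2, Wbp1l and Lrrc59 had differences of -0.21, 0.24 and 0.23, with adjusted p between 0.0618 and 0.125. A second Wbp1l probe set differed by 0.059. With scan day as a term Npepps (adjusted p = 0.0354), Spetex2l2 (0.0437), Git2 (0.0457), Cnot8 (0.0242), Itpk1 (0.0105) and Wbp1l (0.0378) also passed, and Nherf1 (0.0558) and Lrrc59 (0.0706) did not. With module as a term none of these 10 genes passed.

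Gene lists are described below by counts, with 1 probe set per gene. They were chosen with earlier results of these data known, so the called genes they hold are no separate support. Over all 7489 genes tested the median difference was -0.0023, 3694 differences were above 0, and 801 genes (10.7%) had unadjusted p under 0.05. Genes of lists with no called member were named after their values were seen.

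Glucocorticoid-responsive genes included 2 of the 7 that rose, Sult1a1 and Gpd1, of which only Sult1a1 passed without replicate 4. Of 18 tested members 5 had unadjusted p under 0.05 and all 5 were higher in 5T-AI rats (27.8%, against 10.7% of all genes), 15 of 18 differences were above 0, and the median was 0.056. The other 3 were Tsc22d3, a leucine zipper protein that relays anti-inflammatory steroid action (0.28 ± 0.09), Angptl4, an inhibitor of lipoprotein lipase (0.31 ± 0.10), and Fkbp5, a co-chaperone that restrains the steroid receptor (0.25 ± 0.09). Their adjusted p-values were 0.253, 0.251 and 0.313. Angptl4 had 395 units in replicate 4 and 124.3 to 189.5 in the other 5T-AI arrays, against 122 to 160.8 in NT-A rats. Without replicate 4 the Angptl4 difference was 0.18 (adjusted p = 0.46). Angptl4 was dim, above the 40th percentile in 6 of 10 5T-AI and 1 of 10 NT-A arrays. Fkbp5 signals were 476 to 702 with a median of 528 units in 5T-AI rats, against 345 to 540 with a median of 447 in NT-A rats, so the groups overlapped, and without replicate 4, the highest, the difference was 0.21. Sgk1, a kinase that corticosterone induces in hippocampus, had medians of 2911 units in 5T-AI and 2749 in NT-A rats (0.039 ± 0.17, adjusted p = 0.96), with wide spread in both groups. Without replicate 4, in which 8 of the 18 genes lay above all other arrays, 11 of 18 were above 0 and the median was 0.029, with 5 of 18 again at unadjusted p under 0.05.

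Clock genes held opposite directions. Besides Per2, the repressor Bhlhe41 was higher in 5T-AI rats (0.16 ± 0.06) and the activator pair Bmal1 (-0.24 ± 0.10) and Clock (-0.29 ± 0.12) lower, each with unadjusted p under 0.05 and adjusted p between 0.321 and 0.352. Clock had a second probe set at -0.038. Of 14 tested members 8 were above 0, with a median of 0.065, and 0.062 without replicate 4. At unadjusted p under 0.05, 2 were higher and 2 lower (28.6%, against 10.7% of all genes). Without replicate 4, 4 were higher and 3 lower, against 10% of all genes in either direction.

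None of the immediate early genes passed, and most had differences below 0. Of 28 tested, 3 were above 0, with a median of -0.12, and 5 had unadjusted p under 0.05, all 5 lower (17.9%, against 10.7% of all genes). Arc, which regulates AMPA receptor traffic at active synapses, had 331 to 879 units with a median of 633 in 5T-AI rats, against 623 to 905.5 with a median of 802 in NT-A rats (-0.33 ± 0.12, adjusted p = 0.293). Its lowest value was that of replicate 4, and without it the difference was -0.23. The others were the transcription factors Egr1 (-0.17 ± 0.08), Fos (-0.57 ± 0.27) and Nr4a1 (-0.23 ± 0.09) and the growth arrest protein Gadd45b (-0.24). Fos was dim, above the 40th percentile in 1 of 10 5T-AI and 3 of 10 NT-A arrays. Without replicate 4 the median was -0.11, with 5 of 28 above 0. Homer1, a postsynaptic scaffold with an activity-induced short form, went the other way in 1 of its 5 probe sets (0.29 ± 0.12, adjusted p = 0.348), while its other 4 had differences between -0.17 and -0.026. Bdnf, the growth factor of active synapses, differed by -0.21 ± 0.17 with replicate 4, whose value was 99 units, and by -0.016 without it.

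The medians of the immune and connective tissue lists moved with 1 array: that of complement genes stayed above 0, and the others given here changed sign. Microglia markers had a median of 0.11 with replicate 4 and -0.11 without it. Without it 5 of 26 were above 0, against 3670 of all 7489 genes. On the same terms 5 of 26 had unadjusted p under 0.05, all lower in 5T-AI rats, against 10% of all genes in either direction. Complement genes had a median of 0.33 with 5 of 8 at unadjusted p under 0.05 (62.5%), and 0.083 with 1 of 8 without the array. The 5 were the starters C1qa (0.36), C1qb (0.36) and C1qc (0.42), the protease C1s (0.30) and the C1 inhibitor Serping1 (0.44), with adjusted p between 0.272 and 0.467, and without replicate 4 these differences were between 0.069 and 0.17. C3, on which the cascade converges, had 524 to 798 units in the other 9 5T-AI arrays, against 434 to 881 in NT-A arrays, and differed by -0.087 without replicate 4. Medians for antigen presentation, interferon-responsive and lysosome genes were 0.064, 0.063 and 0.072 with that array and -0.058, -0.030 and -0.030 without it. Markers of meninges and fibroblasts had 0.20 with and -0.022 without it.

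Among glial lists, 1 of 32 astrocyte markers rose, Gjb6, and the median of the list was 0.016. Of the 32, 19 were above 0, and 16 without replicate 4. At unadjusted p under 0.05, 4 were higher and 0 lower (12.5%, against 10.7% of all genes). Acsbg1, an acyl-CoA synthetase of astrocytes, had 1134 to 1266.5 units in 5T-AI rats, against 878 to 1141 in NT-A rats (0.17 ± 0.05, adjusted p = 0.151), and the filament protein Gfap had medians of 6675 units in 5T-AI and 6874 in NT-A rats (-0.013 ± 0.055). Itih3, a hyaluronan-binding protease inhibitor, differed by 0.24 ± 0.08. Vim, a filament protein of reactive astrocytes and of vessels, differed by 0.39 ± 0.17 with replicate 4, at 5576 units, and by 0.10 without it. Of 34 oligodendrocyte and myelin genes 1 rose, Gpd1, with 17 of 34 above 0 and a list median of 0.0032. At unadjusted p under 0.05, 5 of them were higher and 0 lower (14.7%). Without replicate 4, in which 18 of the 34 lay above all other arrays, 13 were above 0 and the median was -0.013. Cryab, a small heat shock protein of oligodendrocytes (0.33 ± 0.09, adjusted p = 0.151), Olig1, a transcription factor of the lineage (0.23 ± 0.08), and Hapln2, a link protein at the node of Ranvier (0.22 ± 0.09), did not pass, and Mbp, the myelin basic protein, differed by -0.054 ± 0.065. Vessel markers had a median of 0.087 with 13 of 16 above 0, and 0.023 with 12 of 16 without replicate 4. In replicate 4, 11 of these 16 lay above all other arrays.

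Most lists of neuronal genes had small negative medians that came closer to 0 without replicate 4, in which neuronal markers were low. General neuron markers had a median of -0.044 with it and 0.012 without it, interneuron markers -0.089 and -0.014, and synaptic vesicle genes -0.052 and -0.0012 on the same terms. Potassium channel genes had a median of -0.096 with the array and -0.056 without it, and GABA receptor subunits -0.097 and -0.052 on the same terms, with 13 of 36 and 2 of 8 above 0 without it. NMDA and metabotropic glutamate receptor genes had -0.083 with it and -0.071 without it, and 0 of 10 had unadjusted p under 0.05. Among kinases and phosphatases of plasticity 1 of 39 fell, Adcy8. Camk4, a calcium-activated kinase of the nucleus, was lower by 0.46 ± 0.17 on the log2 scale without passing (adjusted p = 0.302) and was dim, above the 40th percentile in 2 of 10 5T-AI and 8 of 10 NT-A arrays. The phosphatase subunit Ppp3cb differed by -0.12 ± 0.04, and its regulator Rcan2 by 0.16 ± 0.06, neither passing. Without replicate 4 these differences were -0.074 and 0.11. With it, second probe sets differed by -0.0095 for Ppp3cb and 0.14 for Rcan2.

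Metabolic lists had medians near 0, although in several the share of genes at unadjusted p under 0.05 was above the 10.7% of all genes. In 5T-AI rats 6 of 31 cholesterol synthesis genes were lower and 1 higher at unadjusted p under 0.05 (22.6%), with a median of -0.055. Without replicate 4, in which 22 of the 31 lay below all other arrays, 3 were lower and 1 higher and the median was -0.016. Glycolysis genes had 2 higher and 4 lower of 27 (22.2%), oxidative phosphorylation genes 0 higher and 5 lower of 74 (6.76%), and fat oxidation genes 4 higher and 3 lower of 26 (26.9%), with medians between -0.036 and 0.031. In replicate 4, 13 of the 26 fat oxidation genes lay above all other arrays. Without it 2 of the 26 were higher and 2 lower, and the median was -2.8e-04. Glycolysis genes then had 3 higher and 3 lower, and oxidative phosphorylation genes 1 higher and 3 lower. Of 22 transporters of amino and organic acids 6 were higher and 1 lower (31.8%), with 3 higher and 1 lower without replicate 4. Among matrix genes the protease inhibitors Timp2 (0.41 ± 0.13 with replicate 4, 0.21 without) and Timp3 (0.24 ± 0.09, 0.18 without) and the matrix glycoprotein Sparc (0.33 ± 0.12, 0.17 without) did not pass in either fit. With replicate 4, second probe sets differed by 0.079 for Timp2, 0.21 for Timp3 and 0.17 for Sparc.

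**Figure D4:**
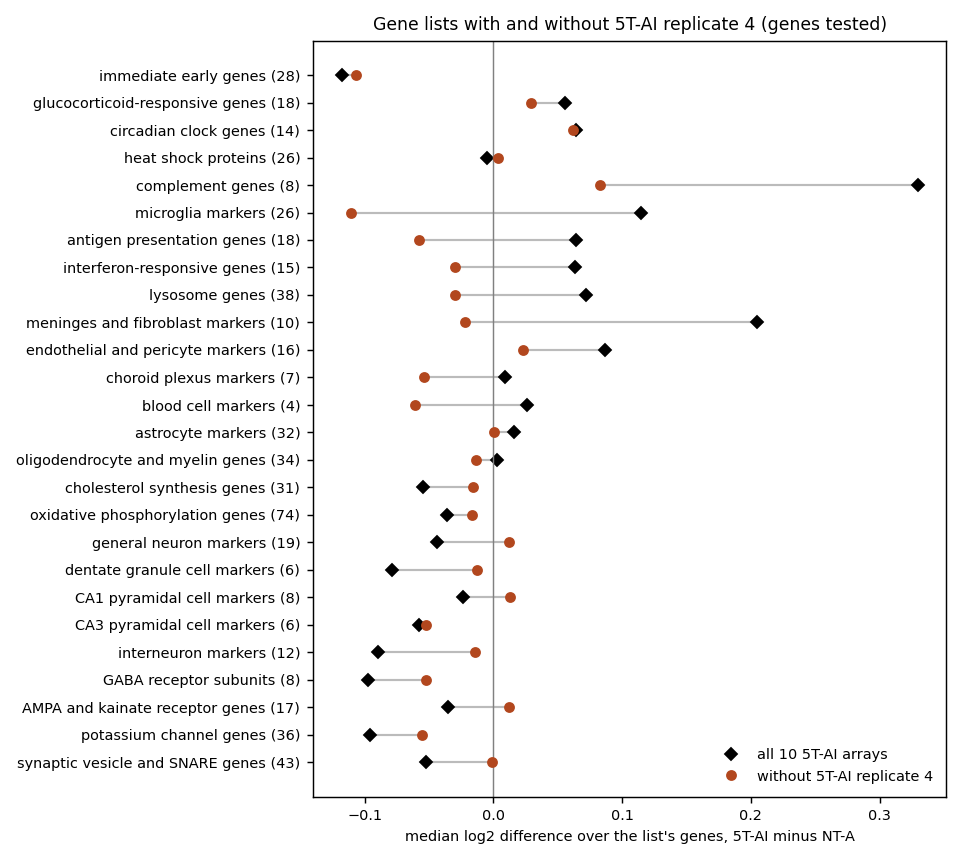
Median log2 difference, 5T-AI minus NT-A, over the genes of 26 lists, with all 10 5T-AI arrays (black diamonds) and without replicate 4 (orange circles), and the number of genes tested in brackets. Complement, microglia and meningeal lists move most, whereas the medians of immediate early genes (-0.12 and -0.11) and clock genes (0.065 and 0.062) stay close.

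To ask whether the response was particular to poor learners, 5T-AI was set directly against 5T-AU, since both trained groups share the NT-A arrays. Of 10371 probe sets 0 passed in limma, and 475 (4.58%) had unadjusted p under 0.05. The smallest adjusted p was 0.149, that of Arc, at -0.54 ± 0.12, and Nr4a1 differed by -0.37 ± 0.09 (adjusted p = 0.366). Without replicate 4 these differences were -0.44 and -0.30. Arc had a median of 633 units in 5T-AI and 830 in 5T-AU rats, whose range was 676 to 1302. For the 9 called genes the interval of the difference from unimpaired rats covered 0 in 6: Gpd1 (-0.38 to 0.23), Ptp4a3 (-0.0021 to 0.40), Gjb6 (-0.022 to 0.34), Sult1a1 (-0.072 to 0.33), Per2 (-0.25 to 0.064) and Pnpla2 (-0.067 to 0.20). Those of Plcl1 (0.030 to 0.26), Adcy8 (-0.62 to -0.13) and Ntng1 (-0.31 to -0.0052) did not cover 0 before adjustment, and their adjusted p was 0.985. Without replicate 4 Plcl1 differed by 0.13 and Adcy8 by -0.25, and the -0.12 of Ntng1 (unadjusted p = 0.134) had an interval that covered 0. The choice of these genes for their difference from NT-A, with the same 5T-AI arrays, favours the side on which their intervals lie. These are 95% intervals of the fit. Fluidics module nearly followed this contrast too, since most 5T-AU arrays were run in module 3, which held no 5T-AI array. With module as a term in limma, Plcl1 differed by 0.14 (unadjusted p = 0.0926), Adcy8 by -0.27 (unadjusted p = 0.11) and Ntng1 by -0.080 (unadjusted p = 0.453).

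The 9 genes were also read in the other trained groups. In 5T-AU against NT-A, which shares its control arrays with 5T-AI, 3 probe sets passed (0.0289%), those of Gpd1 (0.83 ± 0.16), Ptp4a3 (0.49 ± 0.10) and Per2 (0.46 ± 0.08). Gjb6 was at 0.41 ± 0.09 (adjusted p = 0.0603), Sult1a1 at 0.41 ± 0.10 and Ntng1 at -0.29 ± 0.08. Leaving 5T-AI replicate 4 out of the shared fit gave 7 calls in 5T-AU, with Gjb6 (adjusted p = 0.0497) and Sult1a1 (adjusted p = 0.0436) among them. With scan day as a term there were 15, and with module 0. In 21PT-AI, also set against NT-A, 0 passed in limma and 584 (5.63%) had unadjusted p under 0.05, and 1 passed without 5T-AI replicate 4. There Ptp4a3 stood at 0.39 ± 0.11, Gpd1 at 0.31 ± 0.16, Sult1a1 at 0.30 ± 0.11, Gjb6 at 0.21 ± 0.10 and Ntng1 at -0.19 ± 0.08, while Per2 (0.027 ± 0.08) and Adcy8 (0.057 ± 0.13) were near 0. The difference between day 5 and 21 days later was not tested.

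Young rats share no array with this comparison, although they were fitted together. In 5T-Y against NT-Y 7 probe sets passed (0.0675%), 6 higher (0.0579%) and 1 lower (0.00964%). Of these 4 were among the 9 of the impaired rats, which is 44.4% of the 9 and 57.1% of the 7, each with the same sign: Ntng1 (-0.46 ± 0.08 in young rats), Gpd1 (0.90 ± 0.16), Sult1a1 (0.52 ± 0.10) and Per2 (0.36 ± 0.08). All 9 had the same sign in young rats, where Ptp4a3 was at 0.40 ± 0.10, Gjb6 at 0.23 ± 0.09, Pnpla2 at 0.13 ± 0.07, Plcl1 at 0.17 ± 0.06 and Adcy8 at -0.48 ± 0.13. Dbp, an output factor of the clock, and 1 Homer1 probe set passed in young rats (0.45 ± 0.09 and 0.59 ± 0.12) and differed by 0.12 and 0.29 in impaired rats. The remaining call in young rats was a second Gpd1 probe set (1.855 ± 0.41), which did not pass in impaired rats (1.55 ± 0.41). Over all 10371 probe sets Pearson's r between the differences of impaired and young rats was 0.16, as a description across probe sets of 1 fit. All NT-Y arrays were run in fluidics module 1 and no 5T-Y array was, so module and training cannot be told apart within young rats. With module as a term 0 probe sets passed in 5T-Y against NT-Y.

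The test of the difference itself, (5T-AI minus NT-A) minus (5T-Y minus NT-Y), had 0 probe sets past the threshold in limma, with 481 (4.64%) at unadjusted p under 0.05 and a smallest adjusted p of 0.994. For Gjb6 the training difference was larger in impaired old rats than in young rats by 0.34, with an interval of 0.087 to 0.60 before adjustment (adjusted p = 0.994). The intervals of Ptp4a3 (0.00077 to 0.58) and Pnpla2 (0.0082 to 0.39) also lay above 0 before adjustment, at the same adjusted p. These genes were chosen for a large difference between 5T-AI and NT-A, which is part of this contrast, so the side on which their intervals lie is favoured by the choice. Without replicate 4 the difference was 0.34 for Gjb6 (unadjusted p = 0.0139), while those of 0.22 for Ptp4a3 (unadjusted p = 0.121) and 0.13 for Pnpla2 (unadjusted p = 0.132) had intervals that covered 0. With module as a term in limma that of Gjb6 was 0.40 (unadjusted p = 0.0639). Ptp4a3 was then at 0.17 (unadjusted p = 0.488) and Pnpla2 at 0.29 (unadjusted p = 0.0686). Untrained rats had Gjb6 medians of 310 units in NT-A and 352 in NT-Y. Intervals for Gpd1 (-0.57 to 0.29), Sult1a1 (-0.26 to 0.30), Per2 (-0.22 to 0.23) and Ntng1 (-0.20 to 0.23) covered 0, as did those of Plcl1 (-0.016 to 0.32) and Adcy8 (-0.46 to 0.24). A p that misses the threshold does not show that old and young rats respond alike.

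**Figure D5:**
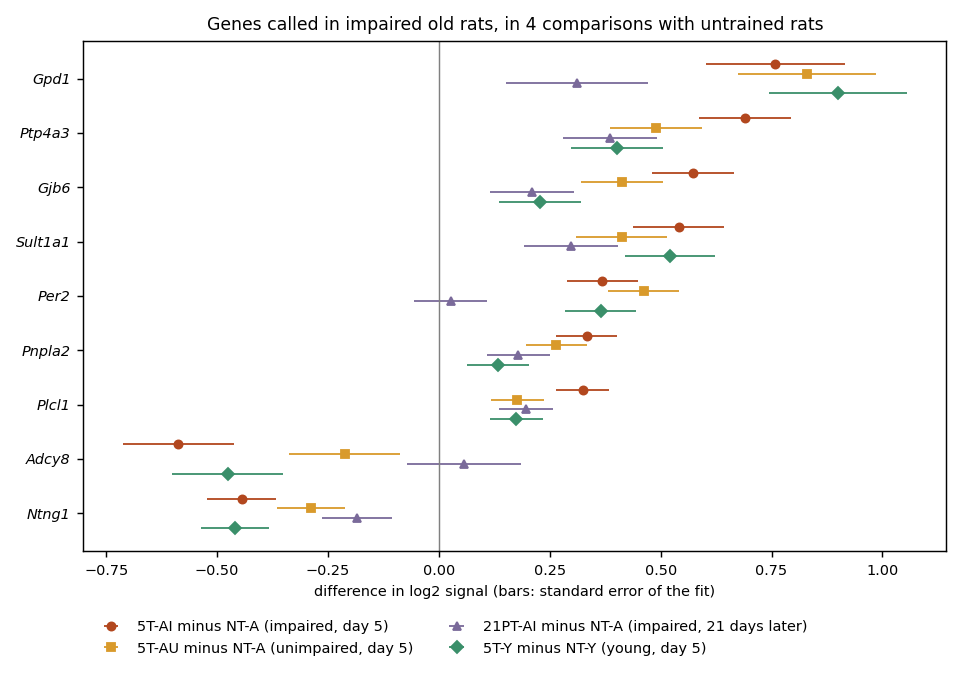
Difference in log2 signal with the standard error of the fit for the 9 genes called in impaired old rats, in 5T-AI, 5T-AU and 21PT-AI (each minus NT-A, so sharing those controls) and in 5T-Y minus NT-Y. All 9 have the same sign in the 3 day 5 comparisons, and 21 days after training Per2 (0.027) and Adcy8 (0.057) are near 0.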

How the data were processed

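Each of 78 arrays (8 groups) measured 1 rat on the Affymetrix RAE230A array. Per the submitters' processing notes, the authors deposited signal intensities computed with MAS5 in GCOS 1.1, and each array's trimmed mean lay between 500.08 and 500.1. The deposited intensity was used as log2(signal + 1), so fold changes are on that scale and understate those of dim probe sets. Of 15923 probe sets 57 controls were left out, and 10371 whose signal exceeded their own array's 40th percentile in at least 9 arrays were tested. GEO's platform annotation gave 12783 probe sets 1 symbol, 312 several and 2771 none, and 12748 gene IDs matched the RefSeq table.

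Group means of all 8 groups were fitted together with limma 3.58.1 (R 4.3.3; lmFit, eBayes with trend), and p-values were adjusted over all tested probe sets by Benjamini-Hochberg. Adjusted p-values and SEs in the text come from this fit. Named genes were those past an adjusted p of 0.05 with or without 5T-AI replicate 4, the 20 with the smallest p, for each list holding a called gene its leading members by p (at most 4), and a set of genes always given (such as Arc, Sgk1, Gfap and C3); others were named after their values were seen. For lists, 1 probe set per gene was used. The members and lists were chosen with earlier results of these data known. Alternatives covered normalisation, filter, pseudocount, scan day, chip lot, module, control ratios, array weights and replicate 4. The steps were tested on simulated data. Other steps used Python 3.11.15, numpy 2.4.6, pandas 2.3.3 and matplotlib 3.10.9. Maze latencies, and a percent of probe time in the goal quadrant that was not used here, come from a table the authors deposited. The number of arrays limits the precision.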

Additional observations from a re-analysis of the deposited data

Results flagged for a closer look

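In groups of 10, the highest or lowest array was set against the spread of the rest with Dixon's test, which chance marks in about 1 of 20 sets. It marked 27 of 114 sets, and 21 of the 27 were 5T-AI replicate 4. That array was the highest of its group for Gpd1 (4310 units), Sult1a1 (993), Pnpla2 (506), Mmp14 (692), Slc2a1 (1374), Angptl4 (395), Vim (5576), Timp2 (3296), Sparc (3196), Timp3 (1435), Fos (251), Fkbp5 (702), Gfap (8455), C3 (1778) and Hbb (8812), and for the median signal (268). It was the lowest for Adcy8 (40.4 units), Ppp3cb (3842), Arc (331), Bdnf (99) and the mean correlation with the other arrays (0.937). Elsewhere Gjb6 was high in 5T-AI replicate 9 (581 units), Tfrc, the transferrin receptor, high in NT-A replicate 2 (1508), and Timp2 low in NT-A replicate 9 (557). Timp3 was low in NT-A replicate 5 (628), Bdnf low in NT-A replicate 3 (247), and the mean correlation low for NT-A replicate 5 (0.957).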

How the results depend on the processing

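All 9 called genes kept their sign in the 15 alternatives run. Against 9 calls, the count was 24 with scan day as a term (all 9 among them), 14 with scan day and without replicate 4, 4 with scan day and only the 20 arrays, 5 with only the 20 arrays, 14 with chip lot, 19 with animal code letter, 15 with the actin ratio, 21 with array weights and 2 with module. The labels do not say whether replicate numbers pair the rats. By number 6 of 10 pairs correlated above 0.1 (range -0.0614 to 0.333), and 4 of 10 arrays matched their own number best. Pairs of the same scan day, which in part are the same pairs, correlated between 0.0122 and 0.333. A replicate block gave 20 calls. Both scan day combinations were chosen after seeing the data. Young rats had 7 calls, 0 with module and 13 with scan day without 5T-AI replicate 4. Module ended the calls of Gpd1, Sult1a1, Per2, Pnpla2, Plcl1, Adcy8 and Ntng1, and only the 20 arrays those of Gpd1, Sult1a1, Pnpla2 and Adcy8. Scan day with only the 20 arrays ended the same 4 and that of Ntng1 (-0.445, adjusted p = 0.291). Adcy8 also lost its call after quantile normalisation (-0.546, adjusted p = 0.0881). The causes were not tested.

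Of 795 gene values 11 changed sign, none of a called gene: Sgk1 with array weights (-0.0578) and with scan day without replicate 4 (-0.00182), Gfap (0.0141) and Mbp (0.0238) after quantile normalisation, C3 with array weights (-0.0292), without replicate 4 (-0.0867) and with scan day as well (-0.106), and Hbb with array weights (-0.00196), module (-0.0788), without replicate 4 (-0.0551) and with scan day as well (-0.0727). The median of iron genes was -0.00885 with scan day without replicate 4, and that of solute carriers 0.0533 with array weights, 0.0493 without replicate 4 and 0.04 with scan day as well. Dim probe sets such as Adcy8, Mmp14 and Fos are the least reliable.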
